A study of Mus musculus with 6 samples.

Results

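Collagen chain genes were examined in the choroid plexus, the fringed, vessel-rich tissue inside the ventricles of the brain where cerebrospinal fluid is made. The members were the 43 probe sets, of 25206 on the arrays, whose deposited symbol had the form Col, a type number, a and a chain number. RNA came from C57BL/6J mice, with no treatment or genetic change on the labels, aged 20 to 22 months (aged, n = 3 arrays) or 2 to 3 months (young, n = 3 arrays). By their labels the arrays come from different mice, and neither sex nor batch is given. Each member had 1 probe set. By class there were 11 fibrillar chains (types 1, 2, 3, 5, 11, 24 and 27), 6 basement membrane chains (type 4) and 26 others. The others comprised 6 beaded filament chains (type 6), 9 chains associated with fibrils, 4 transmembrane chains, 3 network chains, 2 multiplexins, the anchoring fibril chain Col7a1 and Col28a1.

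Collagens are trimers of chains wound into a helix, rich in glycine and proline, and they form the scaffold of connective tissue. Fibrillar collagens build the tensile fibrils of the stroma, and type 4 collagen builds the sheet of every basement membrane. The choroid plexus has both, since its secretory epithelium rests on a basement membrane over a core of fibroblasts and fenestrated capillaries. Type 4 chains come from genes arranged in head-to-head pairs, and the usual trimer of blood vessels combines the products of Col4a1 and Col4a2. The products of Col4a3, Col4a4 and Col4a5 form another network, best known from the filtration barrier of the kidney.

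Values are log2 expression per probe set, and differences are aged minus young. A level near background has little meaning on these arrays, so each member was set against olfactory and vomeronasal receptor genes, for which 1353 probe sets had a 95th percentile of 3.46. Mean levels of 35 members exceeded that guide. The 8 others were Col11a1, Col24a1, Col6a4, Col6a5, Col9a1, Col10a1, Col19a1 and Col28a1, with differences between -0.25 and 0.07. The 18 markers of choroid plexus epithelium all exceeded the guide, and their mean level was 10.60 to 10.65 on the aged arrays and 10.49 to 10.75 on the young arrays. Correlations between arrays ran from 0.982 to 0.990.

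Young replicate 3 stood apart in markers that bear on collagen. All 8 markers of leptomeninges, the fibroblast-rich membranes that cover the brain, were highest on that array, by 0.31 to 2.15 over the next array. Their mean level was 4.13 to 5.08 on the aged arrays and 4.46, 4.67 and 6.5 on young replicates 1, 2 and 3. All 8 exceeded the guide. Markers of stromal fibroblasts, 11 of 14 above the guide, averaged 5.68 to 5.94 on the aged arrays and 5.83, 5.91 and 6.30 on the young arrays in replicate order. Only 7 of the 14 were highest on young replicate 3, and its median distance from the highest other array was -0.04. Markers of mural cells, the contractile cells of vessels, 10 of 11 above the guide, averaged 4.85 to 4.94 on the aged arrays and 5.05, 4.96 and 5.63 on the young arrays. Of the 11, 6 were highest on young replicate 3, with a median distance of 0.05. Endothelial markers, described with the type 4 chains, averaged 5.6 on this array and nearly as much, 5.55, on young replicate 1. Of the 15, 8 were highest on young replicate 3, with a median distance of 0.04, and 7 on young replicate 1. All 5 oligodendrocyte markers were highest on young replicate 3, by 0.39 to 0.73 over the next array. Of the 35 members above the guide, 15 had their highest value on young replicate 3, which held the highest value of 12.7% of all probe sets. Another 13 were highest on aged replicate 2, which held the highest value of 24% of all probe sets. Differences that this array moved most are therefore given with and without it, and the part of meningeal or stromal tissue in them was not tested.

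The comparison asked whether expression of the collagen chains differs between aged and young choroid plexus. None of the 43 members passed the test over all probe sets (an adjusted p under 0.05 from limma with the Benjamini-Hochberg method), where 0.0793% of all probe sets passed. The lowest adjusted p among members was 0.398, for Col4a2. Without adjustment, 7 members were lower in aged tissue at a limma p under 0.05, against 3.96% of all probe sets in that direction, and 0 were higher, against 3.82%. The 7 were Col1a1, Col1a2, Col5a1, Col4a1, Col4a2, Col6a1 and Col14a1. For 6 members the 3 aged values all lay under the 3 young values, a separation shown by 6.93% of all probe sets, and for 0 members they all lay over them, against 6.69%. The median difference was -0.07 over the 43 members and 0.00 over all probe sets. Of the 43 members 15 were positive and 28 negative, and of all 25206 probe sets 12721 were negative. Above the guide, 21 of 35 members and 7728 of 14924 probe sets were negative. Without young replicate 3 the median over the 43 members was -0.01, and over the 35 members above the guide it was 0.03, against -0.04 with all arrays. In such bulk tissue fewer cells of a type and less RNA per cell cannot be told apart.

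**Figure D1:**
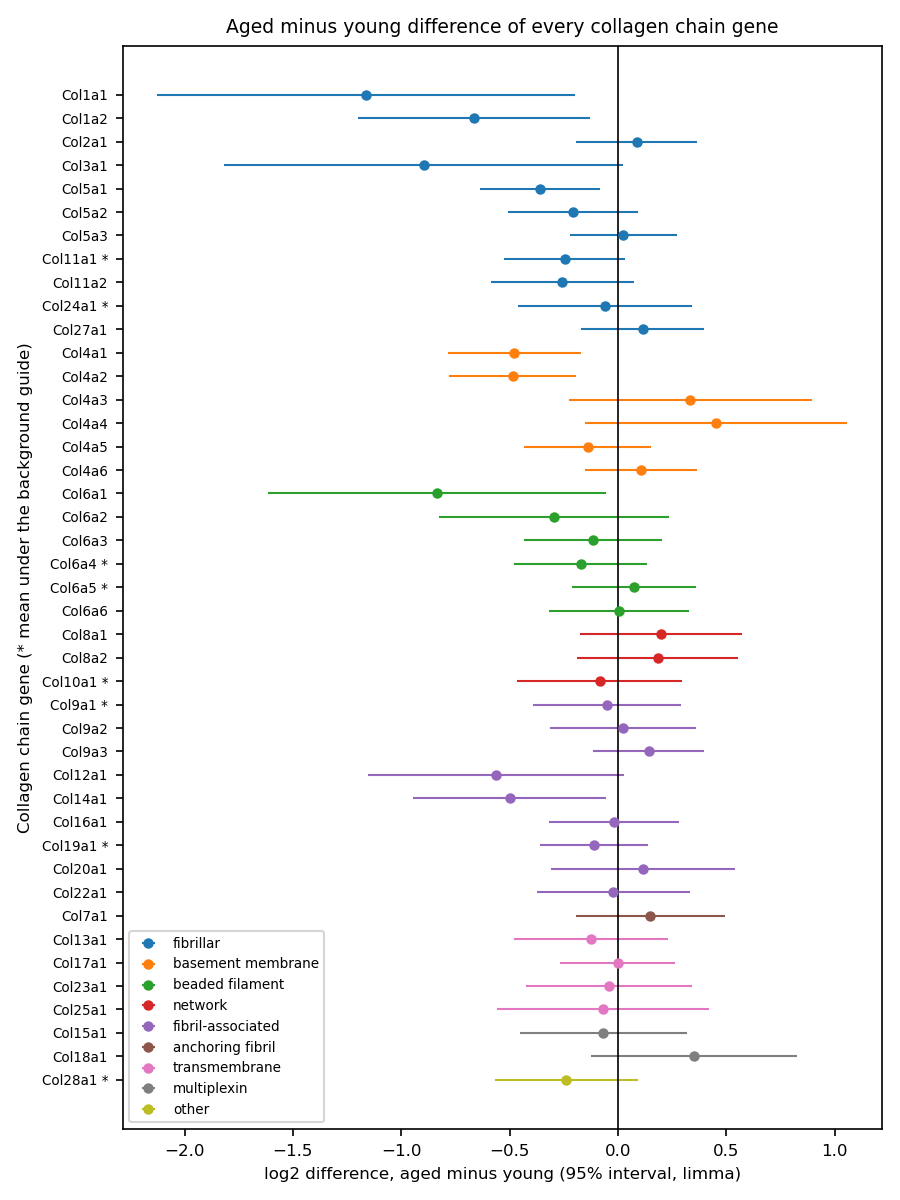
Aged minus young log2 difference of each of the 43 collagen chain genes (points) with its 95% limma interval (bars), coloured by class, with an asterisk for a mean under the background guide. Intervals of 7 members lie wholly below 0 and of 0 members wholly above, and the largest difference, -1.16 for Col1a1, has the widest interval.

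Promoter sequence is shown for members among those 7 with an entry in the RefSeq promoter table (GRCm38.p6). The letters before members with an unadjusted p under 0.05 can so be compared. Each run ends before the first annotated start of the gene, which cut the Col4a1 run to 187 bases and the Col5a1 run to 206 bases. Across the collagen genes 35 of 43 had an entry, with 38 windows in all, and Col1a1 and Col14a1 had none. The Col4a2 window, which lies over the start of Col4a1 on the other strand, is not shown. Capitals mark CCAAT or its reverse complement ATTGG, the GC box GGGCGG or CCGCCC, and the TATA motif TATAAA or TTTATA. The runs read 5′ to 3′ on the strand of the gene and lie at chr6:4505368-4505617 (plus strand, Col1a2), chr2:27886175-27886380 (plus strand, Col5a1), chr8:11312890-11313076 (minus strand, Col4a1) and chr10:76726045-76726294 (minus strand, Col6a1).
Col1a2: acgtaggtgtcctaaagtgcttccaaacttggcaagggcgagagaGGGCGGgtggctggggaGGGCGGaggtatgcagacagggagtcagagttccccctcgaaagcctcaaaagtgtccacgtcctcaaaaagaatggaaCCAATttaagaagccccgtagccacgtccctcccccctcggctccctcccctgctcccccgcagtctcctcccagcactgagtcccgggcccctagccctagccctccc
Col5a1: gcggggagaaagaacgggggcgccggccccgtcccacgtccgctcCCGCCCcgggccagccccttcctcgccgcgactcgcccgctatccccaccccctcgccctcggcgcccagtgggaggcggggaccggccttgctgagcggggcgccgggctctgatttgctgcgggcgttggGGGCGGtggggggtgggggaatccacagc
Col4a1: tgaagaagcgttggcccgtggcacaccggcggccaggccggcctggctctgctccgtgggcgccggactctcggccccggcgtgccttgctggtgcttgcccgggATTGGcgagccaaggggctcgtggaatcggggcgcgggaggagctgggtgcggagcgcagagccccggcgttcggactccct
Col6a1: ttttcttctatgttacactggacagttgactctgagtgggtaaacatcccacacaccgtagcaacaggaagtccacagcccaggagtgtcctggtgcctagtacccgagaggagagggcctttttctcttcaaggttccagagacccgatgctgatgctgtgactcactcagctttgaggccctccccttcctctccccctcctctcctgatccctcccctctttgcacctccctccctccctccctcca
The Col1a2 run holds 1 CCAAT motif and 2 GC boxes, the Col5a1 run 2 GC boxes, the Col4a1 run 1 CCAAT motif and the Col6a1 run 0 of these motifs. Guanine and cytosine made up 62% of the Col1a2 run, 77.7% of the Col5a1 run, 73.8% of the Col4a1 run and 56% of the Col6a1 run. Over the 250 bases before the listed start, a CCAAT motif lay in 13 of the 38 collagen windows and in 33.8% of the 32851 windows of all genes. A GC box lay in 22 of the 38 collagen windows and in 32.7% of all windows, and a TATA motif in 5 of 38 and 12.4%. Different motifs overlapped each other in 0 of the collagen windows. These matches describe letters only.

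Type 1 collagen, the main fibril of connective tissue, had lower values in aged tissue for both of its chains. Col1a1 (Entrez gene 12842), the chain present in more copies in the trimer, stood at 5.48, 5.18 and 5.17 on aged replicates 1 to 3, against 5.68, 6.10 and 7.53 on young replicates 1 to 3. The groups did not overlap, but the 3 young values were spread widely and replicate 3 lay 1.43 over the next array. The difference was -1.16 (SE 0.42, 95% interval -2.13 to -0.20, limma adjusted p = 0.558), which is a level 2.24-fold higher in young tissue. Without young replicate 3 it was -0.62 (adjusted p = 0.464).

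Col1a2 (Entrez gene 12843), the partner chain of type 1 collagen, stood at 5.90, 6.14 and 6.58 on the aged arrays, against 6.52, 6.82 and 7.27 on the young arrays. Aged replicate 3 lay just over young replicate 1, so the groups overlapped. The difference was -0.66 (SE 0.23, 95% interval -1.20 to -0.13, limma adjusted p = 0.546), and -0.46 without young replicate 3. The log2 ratio of Col1a1 to Col1a2 was -0.42, -0.96 and -1.42 on the aged arrays, against -0.84, -0.72 and 0.26 on the young arrays. These ratios overlapped between the groups, and whether the chains differ by unequal amounts was not tested.

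Type 3 collagen, which forms thin fibrils with type 1 in soft tissue and vessel walls, is a trimer of Col3a1 products alone. Col3a1 stood at 4.51, 3.96 and 3.93 on the aged arrays, against 4.37, 4.69 and 6.03 on the young arrays. Aged replicate 1 lay above young replicate 1, and young replicate 3 lay 1.34 over every other array. The difference of -0.90 (95% interval -1.82 to 0.02, limma adjusted p = 0.646) became -0.40 without that array.

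Type 5 collagen is a minor fibrillar collagen that starts fibrils and limits their width. Its chain gene Col5a1 stood at 4.5, 4.56 and 4.56 on the aged arrays, against 4.94, 4.72 and 5.05 on the young arrays. The groups did not overlap, and the aged SD of 0.04 was narrower than the young SD of 0.17. The difference was -0.36 (SE 0.12, 95% interval -0.64 to -0.09, limma adjusted p = 0.520), and -0.29 without young replicate 3. Col5a2 stood at 3.76, 3.88 and 3.85 on the aged arrays and 3.82, 4.08 and 4.22 on the young arrays, a difference of -0.21 (limma adjusted p = 0.756), and of -0.12 without young replicate 3. Col5a3 stood at 4.26, 4.22 and 4.05 on the aged arrays and 4.15, 4.15 and 4.16 on the young arrays, a difference of 0.02 with an interval of -0.22 to 0.27.

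The other fibrillar chains above the guide were Col2a1, Col11a2 and Col27a1. Col2a1, the main cartilage collagen, stood at 4.8, 4.93 and 5.1 on the aged arrays and 4.82, 4.96 and 4.79 on the young arrays, a difference of 0.09 (95% interval -0.19 to 0.36). Col11a2, a chain of the collagen that accompanies type 2 in cartilage fibrils, stood at 3.64, 3.97 and 3.62 on the aged arrays and 3.90, 4.19 and 3.92 on the young arrays, a difference of -0.26 (95% interval -0.59 to 0.07). Groups overlapped in both genes. Col27a1, also known from developing cartilage, stood at 4.83, 4.91 and 4.64 on the aged arrays and 4.58, 4.64 and 4.82 on the young arrays, a difference of 0.11 (95% interval -0.17 to 0.40). Col11a1, under the guide, was the other fibrillar gene without overlap, at 2.72 to 2.95 in aged and 2.98 to 3.21 in young tissue. Over the 11 fibrillar genes the median difference was -0.25, with 8 negative (12721 of 25206 over all probe sets), and it was -0.20 without young replicate 3. Their mean level was 4.32, 4.38 and 4.30 on the aged arrays, against 4.45, 4.6 and 4.94 on the young arrays.

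**Figure D2:**
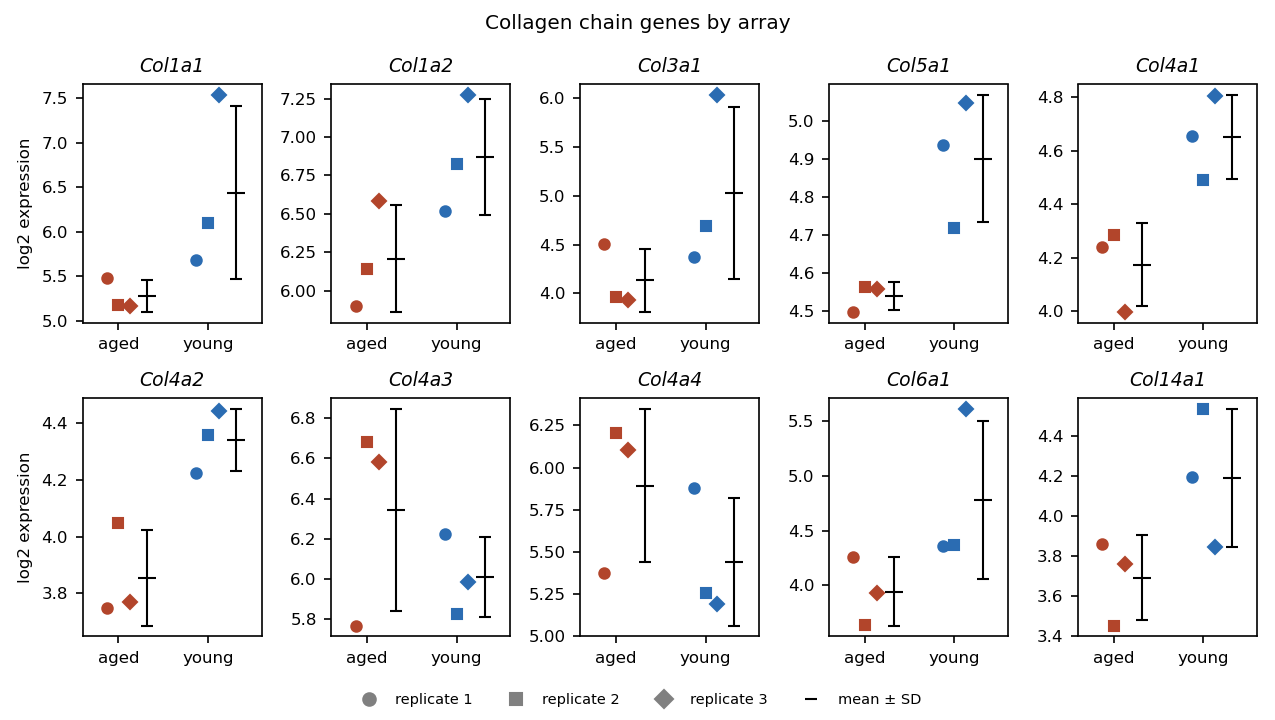
Log2 expression of 10 collagen chain genes on each array, aged left (red) and young right (blue), with marker shape for the replicate and the mean ± SD (n = 3 each) in black. Young replicate 3 lies over 1 log2 unit above every other array for Col1a1, Col3a1 and Col6a1, while for Col4a1 and Col4a2 all 3 young points lie above all 3 aged points.

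Among the basement membrane chains, Col4a1 and Col4a2 had the smallest p of all members. Col4a1 (Entrez gene 12826) stood at 4.24, 4.28 and 4.0 on the aged arrays, against 4.66, 4.49 and 4.81 on the young arrays, a difference of -0.48 (SE 0.13, 95% interval -0.78 to -0.17, limma adjusted p = 0.435). Col4a2 (Entrez gene 12827) stood at 3.75, 4.05 and 3.77 on the aged arrays, against 4.22, 4.36 and 4.44 on the young arrays, a difference of -0.49 (SE 0.13, 95% interval -0.78 to -0.19, limma adjusted p = 0.398). Neither gene overlapped between the groups, and the levels were 1.39-fold and 1.40-fold higher in young tissue. Without young replicate 3 the differences were -0.40 and -0.44. Over the 6 fits that leave out 1 array they lay between -0.56 and -0.39 for Col4a1 and between -0.58 and -0.43 for Col4a2, with a limma p under 0.05 before adjustment each time. The authors' deposited table gives q-values of 0.280 for Col4a1 and 0.247 for Col4a2 over its filtered probe sets.

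The log2 ratio of Col4a1 to Col4a2 was 0.49, 0.24 and 0.23 on the aged arrays and 0.43, 0.14 and 0.36 on the young arrays. The mean log2 ratio differed by 0.01 between the ages (aged minus young). These genes lie next to each other on mouse chromosome 8, with 0 genes between them in the RefSeq gene table, and point away from each other. Both are also made by endothelial cells. Endothelial markers, 14 of 15 above the guide, averaged 4.85 to 4.90 on the aged arrays and 5.17 to 5.6 on the young arrays without overlap. Of those 15 markers, 11 were lower at a limma p under 0.05 before adjustment, against 3.96% of all probe sets, and 0 passed after it. The part of endothelial RNA in the type 4 values was not tested.

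Col4a3 and Col4a4, the next head-to-head pair, had positive differences that rested on aged replicates 2 and 3. Col4a3 stood at 5.77, 6.68 and 6.58 on the aged arrays, against 6.22, 5.83 and 5.98 on the young arrays, a difference of 0.33 (95% interval -0.23 to 0.89, limma adjusted p = 0.785). Col4a4 stood at 5.37, 6.21 and 6.10 on the aged arrays, against 5.88, 5.25 and 5.19 on the young arrays, a difference of 0.45 (95% interval -0.15 to 1.06, limma adjusted p = 0.740). In each gene aged replicate 1 lay within or below the young range and the other 2 aged arrays lay above it. Without aged replicate 1 the differences were 0.62 (adjusted p = 0.284) and 0.71 (adjusted p = 0.390). Without aged replicate 2 they were 0.16 and 0.30, and without aged replicate 3 they were 0.21 and 0.35. The log2 ratio of Col4a3 to Col4a4 was 0.40, 0.48 and 0.48 on the aged arrays and 0.35, 0.57 and 0.79 on the young arrays.

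The pair on the X chromosome differed least. Col4a5, the third partner of the kidney-type network, stood at 5.58, 5.66 and 5.68 on the aged arrays, against 6.00, 5.66 and 5.69 on the young arrays, a difference of -0.14 (95% interval -0.43 to 0.15). Col4a6, found with Col4a5 in some epithelial and smooth muscle basement membranes, stood at 4.25, 4.2 and 4.16 on the aged arrays, against 4.03, 4.02 and 4.25 on the young arrays, a difference of 0.11 (95% interval -0.15 to 0.37). Both genes overlapped between the groups. Over the 6 type 4 genes the median difference was -0.02, with 3 positive and 3 negative. Whether Col4a1 and Col4a2 differ from Col4a3 and Col4a4 in their response to age was not tested.

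**Figure D3:**
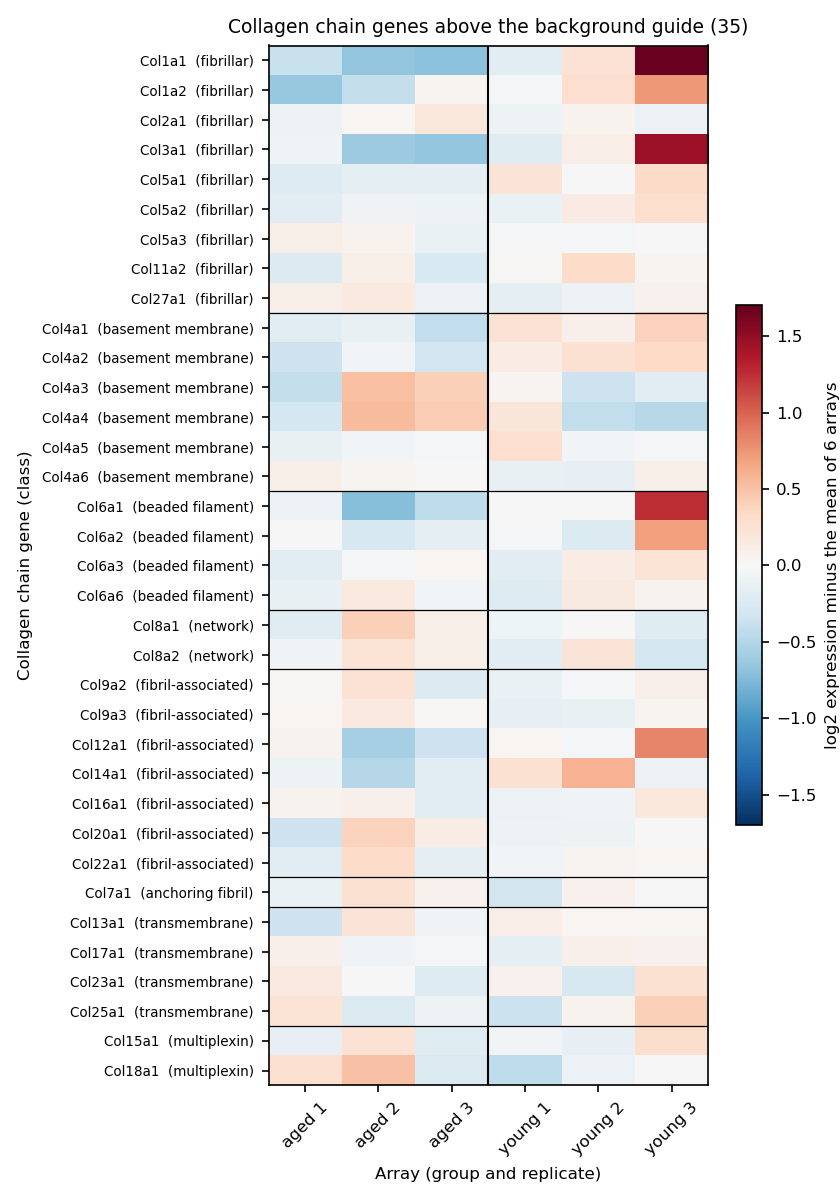
Log2 expression minus the mean of the 6 arrays for the 35 collagen chain genes above the background guide (rows, by class) on each array (columns, aged left of the line). The darkest red cells, for Col1a1, Col3a1, Col6a1 and Col12a1, all fall on young replicate 3, and Col4a3 and Col4a4 are raised on aged replicates 2 and 3.

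Type 6 collagen forms beaded filaments around cells and links basement membranes to the stroma. Col6a1, one of its core chains, stood at 4.26, 3.64 and 3.93 on the aged arrays, against 4.36, 4.37 and 5.61 on the young arrays. The groups did not overlap, yet aged replicate 1 lay close to the lower young values and young replicate 3 lay 1.25 over the next array. The difference was -0.84 (SE 0.34, 95% interval -1.61 to -0.06, limma adjusted p = 0.607), and -0.42 without young replicate 3. The partner chain Col6a2 stood at 4.71, 4.44 and 4.55 on the aged arrays and 4.69, 4.48 and 5.41 on the young arrays, and its difference of -0.29 became -0.02 without that array. Col6a3 and Col6a6 differed by -0.11 and 0.00, with every interval of the last 3 genes including 0.

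Chains associated with fibrils decorate the fibril surface and alter its contacts. Col14a1, which regulates fibril growth, was the member with an unadjusted p under 0.05 for which young replicate 3 was not the highest young value. It stood at 3.86, 3.45 and 3.76 on the aged arrays, against 4.20, 4.54 and 3.85 on the young arrays, with aged replicate 1 just over young replicate 3. The difference was -0.50 (SE 0.19, 95% interval -0.95 to -0.05, limma adjusted p = 0.582), and -0.67 without young replicate 3. It shrank to -0.33 without young replicate 2 and to -0.38 without aged replicate 2, with a limma p over 0.05 before adjustment both times. On aged replicate 2 Col14a1 lay just under the background guide. Col12a1, which binds type 1 fibrils, stood at 4.20, 3.58 and 3.78 on the aged arrays and 4.17, 4.11 and 4.97 on the young arrays, and its difference of -0.56 became -0.29 without young replicate 3. The members Col9a2, Col16a1, Col20a1 and Col22a1 differed by -0.02 to 0.11, and Col9a3, a chain of the type 9 collagen known from cartilage fibrils, averaged 8.89 ± 0.08 in aged and 8.75 ± 0.11 in young tissue (SD, n = 3 each).

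**Figure D4:**
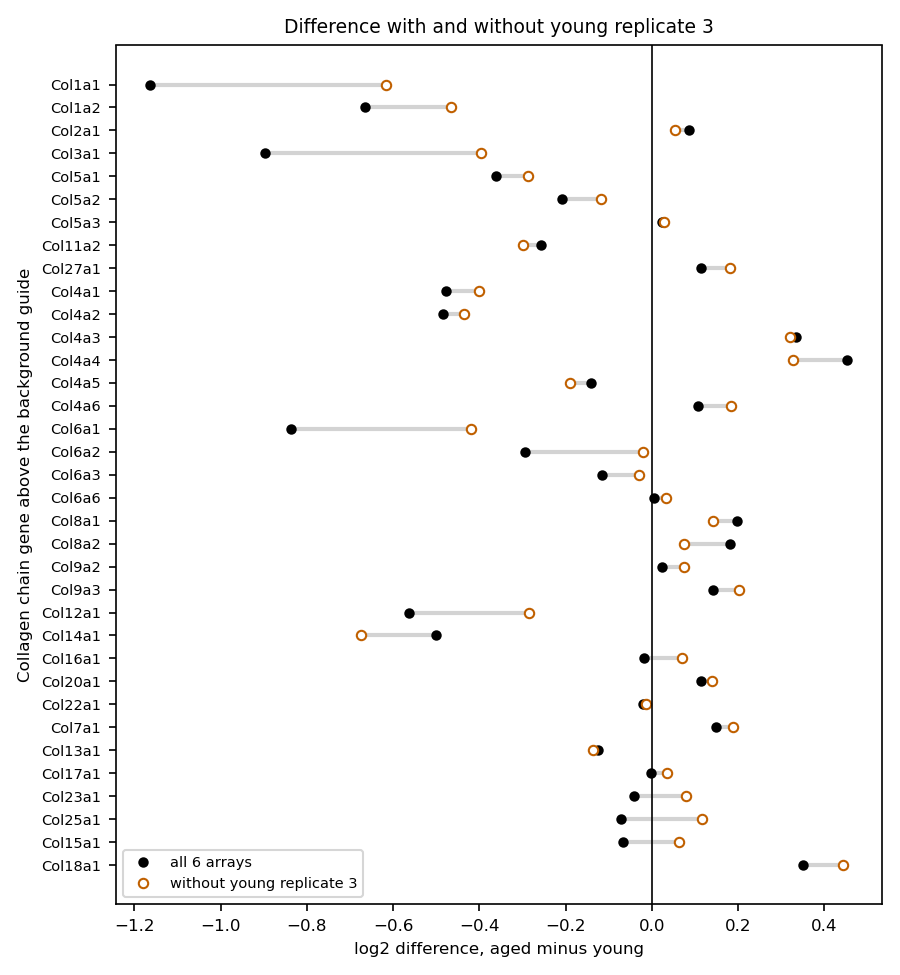
Aged minus young log2 difference of the 35 collagen chain genes above the guide, from all 6 arrays (filled) and without young replicate 3 (open). Points for Col1a1, Col3a1, Col6a1, Col6a2 and Col12a1 move most towards 0, those for Col4a1 and Col4a2 move little, and that for Col14a1 moves away from 0.

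Type 8 collagen forms hexagonal networks in vessel walls and in the membrane beneath the corneal endothelium. Col8a1 stood at 9.58, 10.18 and 9.88 on the aged arrays, against 9.70, 9.77 and 9.57 on the young arrays, a difference of 0.20 (95% interval -0.18 to 0.57). Its partner Col8a2 stood at 7.84, 8.13 and 8.0 on the aged arrays and 7.71, 8.12 and 7.59 on the young arrays, a difference of 0.18 (95% interval -0.19 to 0.55). The groups overlapped in both genes. Col18a1, a basement membrane multiplexin whose end fragment is endostatin, stood at 4.92, 5.14 and 4.40 on the aged arrays, against 4.21, 4.54 and 4.66 on the young arrays, a difference of 0.35 (95% interval -0.13 to 0.83). The transmembrane chains Col13a1, Col17a1, Col23a1 and Col25a1 differed by -0.13 to 0.00, Col15a1 by -0.07, and Col7a1, the chain of anchoring fibrils, by 0.15. Every one of these intervals included 0. Without young replicate 3 the differences of Col17a1, Col23a1, Col25a1, Col15a1 and Col16a1 had a positive sign, at 0.03 to 0.12. Col6a2, Col8a1, Col8a2, Col12a1 and Col18a1 did not meet the rule for values on every array. Their values are given although they were chosen after they were seen. The same holds for the means of Col9a3, the group ranges of Col11a1 and the single differences of Col6a3, Col6a6, Col7a1 and Col15a1. Other members outside the rule are given by ranges of differences.

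**Figure D5:**
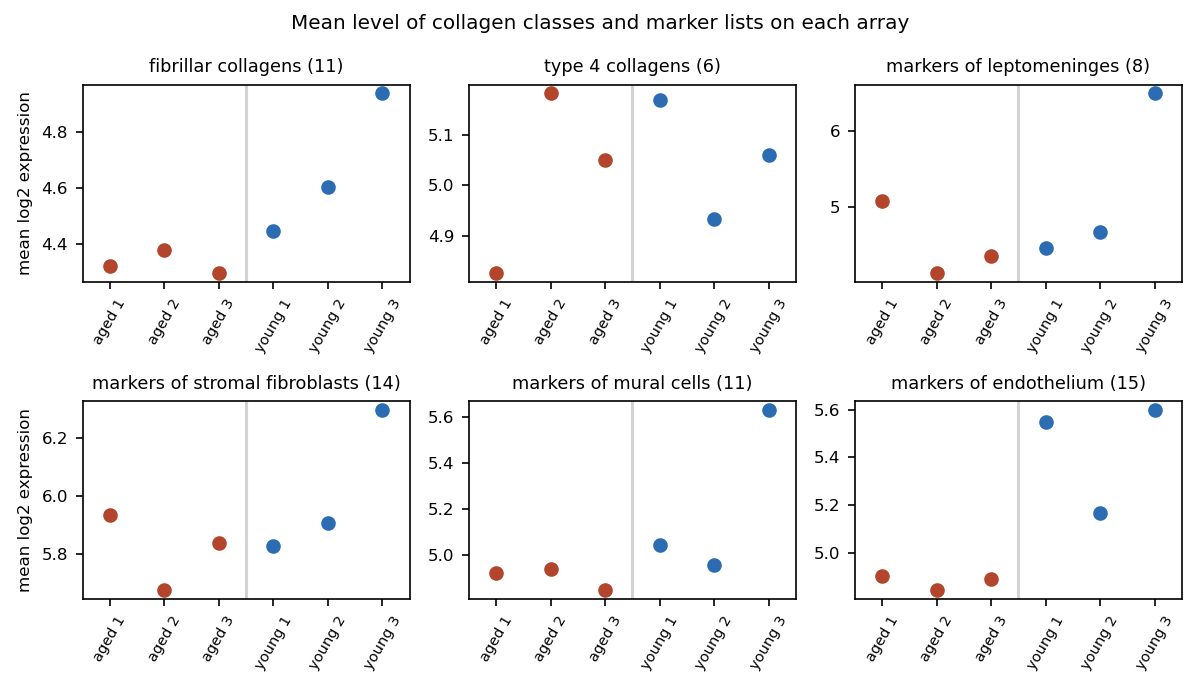
Mean log2 expression on each array (points, aged left in red and young right in blue) over the fibrillar and type 4 collagen genes and over 4 marker lists, with the number of genes in brackets. Fibrillar collagens and the markers of leptomeninges, stromal fibroblasts and mural cells have their highest mean on young replicate 3. Endothelial markers have a mean of 5.6 there and 5.55 on young replicate 1, and are higher on all 3 young arrays than on any aged one.

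Genes that make, link and bind collagen gave no call either: 0 members of the 7 lists passed the limma test over all probe sets. Of 21 folding enzymes and chaperones, 4 were lower and 0 higher at a limma p under 0.05 before adjustment, with a list median of -0.16. Over all probe sets 3.96% were lower and 3.82% higher at that threshold, for this list and those that follow. Serpinh1, the collagen-specific chaperone of the endoplasmic reticulum, stood at 6.56, 6.35 and 6.32 on the aged arrays, against 6.79, 6.85 and 6.89 on the young arrays (difference -0.44, adjusted p = 0.389). The prolyl isomerase Fkbp14 differed by -0.56 and the lysyl hydroxylase Plod2 by -0.38, and in all 3 genes the groups did not overlap. Of 10 genes for propeptide cleavage, 1 was higher, Pcolce, an enhancer of the enzyme that trims procollagen, at 9.40, 9.97 and 9.85 on the aged arrays and 9.07, 9.46 and 9.34 on the young arrays.

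Crosslinking enzymes were mixed, with 3 of 7 lower and 2 higher before adjustment. The lysyl oxidase Loxl2 stood at 4.97, 5.14 and 4.81 on the aged arrays, against 5.58, 5.58 and 5.42 on the young arrays (difference -0.55, limma adjusted p = 0.330). Pxdn, the peroxidase that crosslinks type 4 collagen, stood at 3.58, 3.59 and 3.41 on the aged arrays, against 4.37, 3.93 and 4.07 on the young arrays (difference -0.60, adjusted p = 0.360). Its aged values lay close to the background guide, and that of aged replicate 3 lay under it. Neither Loxl2 nor Pxdn was highest on young replicate 3. Lox, a lysyl oxidase named after its values were seen, stood at 3.64, 4.03 and 3.86 on the aged arrays, against 4.31, 4.28 and 5.30 on the young arrays. Its highest value was on young replicate 3, and its difference of -0.79 became -0.45 without that array. Loxl3 had the opposite sign, at 6.11, 6.31 and 6.15 on the aged arrays and 5.82, 5.89 and 5.63 on the young arrays (difference 0.41, adjusted p = 0.457).

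Of 16 partners of type 4 collagen in basement membranes, 4 were lower before adjustment and 1 higher. Sparc, a collagen-binding glycoprotein, stood at 9.56, 9.50 and 9.29 on the aged arrays, against 9.82, 10.06 and 10.14 on the young arrays (difference -0.55, limma adjusted p = 0.381). The laminin chain Lama2 differed by -0.71 and the linker Nid1 by -0.89, and both were highest on young replicate 3, without which they differed by -0.52 and -0.50. Of 11 collagen receptors, 5 were lower and 1 higher. Itga2, a collagen-binding integrin chain, had the smallest p in these lists, at 3.29, 3.18 and 3.29 on the aged arrays, against 4.11, 3.96 and 4.02 on the young arrays (difference -0.78, SE 0.10, limma adjusted p = 0.0715). Its aged values lay under the background guide. Itga1, another collagen-binding integrin chain, stood at 5.91, 5.57 and 5.76 on the aged arrays, against 6.57, 6.41 and 6.43 on the young arrays (difference -0.72, adjusted p = 0.159). Mrc2, which takes up collagen fragments, differed by -0.91. It was highest on young replicate 3, without which it differed by -0.71.

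Of 12 collagenases, gelatinases and inhibitors, 1 was lower before adjustment, the inhibitor Timp1, whose values of 2.30 to 2.46 in aged and 2.51 to 2.80 in young tissue lay under the guide. Of 14 fibril regulators, 6 were lower and 0 higher, with a list median of -0.34, and of -0.20 without young replicate 3. The proteoglycan Ogn stood at 8.56, 8.44 and 8.55 on the aged arrays, against 9.15, 9.49 and 9.44 on the young arrays (difference -0.84, SE 0.13, limma adjusted p = 0.105). Its relative Omd differed by -1.41 with overlapping groups, and by -0.97 without young replicate 3, with an aged mean of 3.06 under the guide. Postn, a matrix protein that binds collagen, differed by -0.42.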

How the data were processed

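Total RNA of choroid plexus was hybridised to arrays, 1 array per mouse, per the labels. The authors deposited log2 expression per probe set, with probe sets defined per Entrez gene by Brainarray, per the file headers. RMA and limma 3.14.4 are named in the submitters' processing notes, while for the array model and genome build nothing is given in the sources used here. The authors' signed fold change and t statistic, deposited as a score, and their p-values and q-values are in the same table. The limma p here differed from theirs by at most 4.5e-13, so it repeats their test and is no separate support. Folds here come from the difference of mean log2 values and can differ from the authors' fold changes. For Col1a1 the level was 2.24-fold higher in young tissue here, against a deposited signed fold change of -2.61.

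All 25206 probe sets were fitted with limma 3.58.1 in R 4.3.3 (lmFit, eBayes, 1 term for age, no filter), with Benjamini-Hochberg adjustment over all probe sets, two-sided, and 95% intervals. RMA compresses differences near background, and the number of arrays limits precision. On simulated data for aged against young over 25206 probe sets, 200 were changed in each run. The fit recovered 5.11% of log2 differences of 0.5, 63.9% at a difference of 1 and 93.1% at 2. These are averages, and no rate is given for members with a wide spread, such as Col1a1. Each run held on average 5.3 false calls. Current symbols came from a RefSeq table of GRCm38.p6 through Entrez identifiers, which matched 23740 probe sets.

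The members and the lists of markers and pathway genes were chosen with earlier results of these data known. Values on every array are given for each fibrillar and type 4 member above the background guide, for other members above it with an unadjusted p under 0.05 or without overlap, and for up to 3 genes of each pathway list with the smallest p under 0.05. For some of these only the difference is printed. The alternatives changed the values (the rounded table, a further quantile normalization, centring on array medians), the probe sets tested (2 filters on low levels), the variance model (an intensity trend with robust eBayes, or weights per array) and the design (the replicate number as a block, or each array left out in turn).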

Additional observations from a re-analysis of the deposited data

How the results depend on the processing

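No collagen chain gene was called by limma over all probe sets under any alternative. The members lower at an unadjusted p under 0.05, 7 with all arrays, numbered 6 to 9 under the other alternatives and 4 to 8 when 1 array was left out. Those 4 were Col1a1, Col14a1, Col4a1 and Col4a2 without young replicate 3, Col11a2, Col5a1, Col4a1 and Col4a2 without aged replicate 2, and Col1a2, Col5a1, Col4a1 and Col4a2 without aged replicate 3. Members higher at that threshold, 0 with all arrays, numbered 0 to 2 when 1 array was left out: 2 without aged replicate 1 (Col4a3 and Col4a4), and 1 without aged replicate 3 (Col18a1), young replicate 1 (Col4a4) or young replicate 2 (Col8a2). Among the 17 members named by the rule, the sign reversed for Col5a3 alone, whose difference ran from -0.0174 (without aged replicate 1) to 0.0884 (without aged replicate 3) when 1 array was left out. The cause was not tested. Over all 43 members, 5 members outside those 17 changed sign without young replicate 3, from values between -0.07 and 0.00 with all arrays. With the replicate number as a block, 8 members were lower before adjustment. Deviations of arrays with the same number correlated at -0.02, 0.15 and -0.05, and those with unlike numbers at -0.14 to 0.15. With so few arrays these values cannot decide whether the number pairs the mice. Over all probe sets the calls, 15 higher and 5 lower, were 14 to 17 and 1 to 12 under the other alternatives, and 0 to 27 and 0 to 25 without 1 array. The number of arrays, and for 8 members a level under the background guide, limits what could be detected.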

Other observations

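Markers of nervous tissue also varied between arrays. The mean of 5 neuron markers was 7.26, 4.59 and 5.21 on the aged arrays and 5.62, 5.45 and 5.84 on the young arrays, and all 5 were highest on aged replicate 1. The mean of 5 oligodendrocyte markers was 6.58, 5.08 and 7.02 on the aged arrays and 6.62, 6.27 and 7.61 on the young arrays, and all 5 were highest on young replicate 3. Astrocyte markers averaged 6.96, 4.91 and 6.21 on the aged arrays and 5.99, 5.68 and 6.56 on the young arrays. Aged replicate 2 was the lowest array for all 5 oligodendrocyte markers, 4 of 5 neuron markers and 5 of 8 leptomeningeal markers.

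Macrophage markers averaged 5.30, 5.10 and 5.63 on the aged arrays and 4.41, 4.63 and 4.99 on the young arrays without overlap, and 8 of 12 were higher at a limma p under 0.05 before adjustment, against 3.82% of all probe sets, with 0 passing after it. Ependymal markers averaged 6.06 to 6.28 on the aged arrays and 5.99 to 6.25 on the young arrays. Cartilage markers, of interest because Col2a1 and the type 9 and 11 chains are best known from cartilage, averaged 3.78 to 3.88 on the aged arrays and 3.74 to 4.05 on the young arrays, and 2 of 6 exceeded the background guide.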
